A study of Mus musculus with 4 samples.

Results

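The OAS genes encode the oligoadenylate synthetases of the mouse and their close relatives. Members were taken by symbol from the deposited expression table: Oas1a, Oas1b, Oas1c, Oas1g, Oas2, Oas3, Oasl1 and Oasl2, 8 of 23240 gene rows, and all 8 were present.

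The samples were bone marrow cells of leukaemic mice, labelled RUNX1-FLT3ITD AML. FLT3ITD is a form of the FLT3 receptor kept active by an internal duplication, and AML stands for acute myeloid leukaemia. The 4 libraries were 4OHT and EtOH of Runx1 delta/delta cells, carrying replicate number 1, and 4OHT and EtOH of Runx1 delta/+ cells, carrying replicate number 2, all with a genotype written on the B6 background. All cells had been kept for 22 h in SFEM medium containing FLT3L, SCF, IL3 and IL11 as cytokines, with 200 nM 4OHT (4-hydroxytamoxifen, the active form of tamoxifen) or an equal volume of its solvent ethanol (EtOH), and a sort had kept GFP+ BFP+ cells without CD11b or Gr1, which mark mature myeloid cells. The labels name neither the protein that 4OHT acts on nor the drivers of the GFP and BFP constructs, nor how many mice gave the cells of each genotype. Each combination of treatment and genotype is 1 library with no replicate of its own.

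OAS enzymes bind double-stranded RNA, a product of virus infection and of some cellular transcripts, and join ATP into short chains linked from the 2′ to the 5′ position, called 2-5A. These chains act as a signal of antiviral defence within the cell. Transcription of OAS genes is classically driven by type I interferon, through factors such as STAT2 and IRF9 at the interferon-stimulated response element (ISRE) in promoters.

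Sequencing depth recovered from the steps between low values was 36.7 M (4OHT) and 34.6 M (EtOH) mapped reads in Runx1 delta/delta, and 39.4 M (4OHT) and 33.7 M (EtOH) in Runx1 delta/+. Of 5 progenitor and blast markers, Kit, Cd34 and Mpo stayed at or below 1.61 RPKM in all 4 libraries, whereas Flt3 lay between 12.6 and 46.3 RPKM and Myb between 17.0 and 99.2 RPKM. RPKM is the number of reads per kilobase of gene, scaled to the mapped reads of the library. Of 12 red cell markers 11 were in the table and none was at 0: their summed level was 4543 and 2952 RPKM in the 4OHT libraries of Runx1 delta/delta and Runx1 delta/+, against 62600 and 33530 RPKM in the EtOH libraries in the same order. Markers of T and NK cells, B cells and monocytes summed to no more than 0.168, 0.287 and 2.97 RPKM in any library, with Cd3e, Ms4a1, Pax5 and Cx3cr1 at 0. Of the plasmacytoid dendritic cell markers, Siglech, Ccr9 and Klk1 were at 0 in all 4 libraries, while Bst2, itself interferon-induced, had 118 RPKM or more.

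Promoter sequences from RefSeq (GRCm38.p6) were found for 6 of the 8 members, all but Oas1b and Oas2. The window searched ran from 250 bases before to 50 bases after the annotated start. The ISRE core, written GAAA, any pair of bases and GAAA again and read on either strand, was present in 4 of these 6 windows, those of Oas1a, Oas1g, Oas3 and Oas1c, against 3.44% of 32851 promoter windows of the same length. The stretches below are shown because they carry these matches, or because they belong to OAS1 paralogs that were almost silent here. All are written 5′ to 3′ on the gene's own strand, end before the start site, and have the ISRE core matches in capitals.
Oas1a promoter, chr5:120907526-120907595, minus strand: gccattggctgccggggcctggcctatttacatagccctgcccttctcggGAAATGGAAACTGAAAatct
Oas1g promoter, chr5:120887614-120887683, minus strand: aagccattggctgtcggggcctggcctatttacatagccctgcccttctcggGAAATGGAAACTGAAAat
Oas3 promoter, chr5:120777690-120777759, minus strand: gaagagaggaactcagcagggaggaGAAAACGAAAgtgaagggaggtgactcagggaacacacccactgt
Oas1c promoter, chr5:120812585-120812654, minus strand: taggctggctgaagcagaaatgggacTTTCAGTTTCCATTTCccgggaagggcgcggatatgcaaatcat
Oas1f promoter, chr5:120847297-120847366, plus strand: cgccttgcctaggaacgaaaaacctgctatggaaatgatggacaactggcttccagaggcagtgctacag
Oas1h promoter, chr5:120861352-120861421, plus strand: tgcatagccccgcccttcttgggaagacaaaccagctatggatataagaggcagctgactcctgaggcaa

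Oas1a, Oas1g and Oas1c each held 2 overlapping ISRE core matches, and the capitals cover both. In Oas1a and Oas1g the nearer match began 14 and 12 bases before the start and stood in the same surrounding letters. In Oas1c it lay on the opposite strand, 108 bases before the start, and in Oas3 it began 75 bases before the start. Read on the other strand, the capitals of Oas1c are the same letters as those of Oas1a and Oas1g. The matches of these genes are therefore a shared run of letters and not separate ones. The windows of Oasl1 and Oasl2 had no ISRE core match. The RUNX core TGTGGT, on either strand, was found in the window of Oasl2 alone among the 6, against 16.8% of all windows, and the core of the gamma-activated site, TTCNNNGAA in that of Oas1a alone, against 8.30%. A match describes the letters of the window and not the binding of a factor.

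The members lie on chromosome 5. Along the RefSeq GRCm38.p6 order, Oas2, Oas3, Oas1e, Oas1c, Oas1b, Oas1f, Oas1h, Oas1g and Oas1a are direct neighbours, and Oasl2 and Oasl1 stand together elsewhere on the chromosome. Oas1a and Oas1g are near copies: of all stretches of 50 bases in the longest GENCODE vM21 transcript of Oas1a, 57.6% also occur in Oas1g, and of those of Oas1g 54.1% occur in Oas1a. Reads of these genes could have been split between the copies, and their separate values are uncertain to that extent. The share was 10.7% for Oas1c with any other OAS gene and 1.34% for Oas1b, and 0 for Oas2, Oas3, Oasl1 and Oasl2. RefSeq lists Oas1b as an older name of Oas1g, and Oasl2 as an older name of Oas1c; the deposited table holds each symbol as a row of its own, and values here follow its symbols.

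Setting 4OHT against EtOH addresses which OAS transcripts changed with the treatment. All 8 members had lower values in 4OHT in both genotypes, against 26.8% of the 9595 genes tested. Of the 8, 7 fell and 0 rose in limma (Benjamini-Hochberg adjusted p under 0.05 across all 9595 genes), against 10.2% of genes tested that fell and 22.2% that rose (32.4% in either direction). Over all genes the split was 2130 higher to 983 lower, and 1221 to 1325 with median-ratio scaling, which left all 8 members lower. All 8 passed the filter of a mean of at least 1 RPKM. The members' median change was -1.42 on the scale of log2(RPKM + 1), on which all values of change below are given, and that of all genes tested was 0.16. In these bulk libraries, fewer cells of a type and less RNA per cell cannot be told apart. In the same libraries 10 of the 11 red cell markers also fell; their part in the OAS result was not tested.

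**Figure D1:**
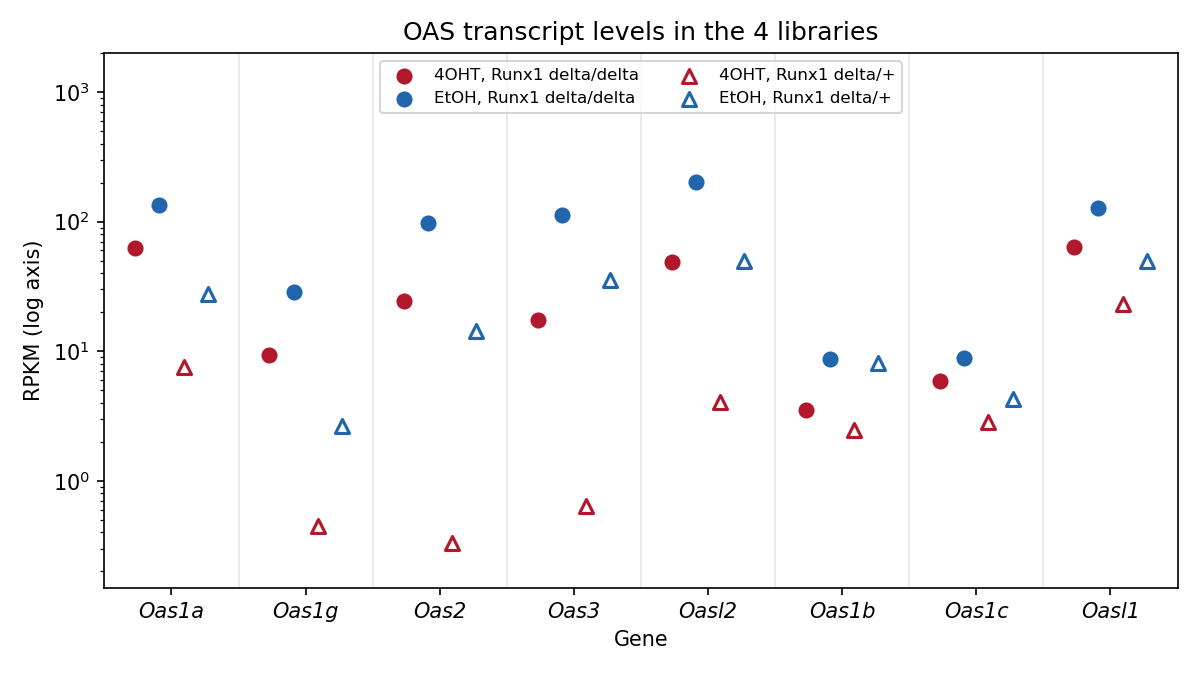
RPKM (log axis) of each OAS gene, 1 point per library: filled circles are Runx1 delta/delta, open triangles Runx1 delta/+, red 4OHT and blue EtOH. The EtOH library of Runx1 delta/delta is the highest and the 4OHT library of Runx1 delta/+ the lowest for each of the 8 genes.

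Oas3 fell most. It encodes the largest synthetase of the family, built of repeated OAS units, and in human cells is the main source of 2-5A during virus infection. It had 17.5 RPKM in 4OHT, against 112 RPKM in EtOH, in Runx1 delta/delta, and 0.635 RPKM in 4OHT, against 35.3 RPKM in EtOH, in Runx1 delta/+. Both 4OHT libraries were below both EtOH libraries. The fall was 6.43-fold in Runx1 delta/delta and 55.6-fold in Runx1 delta/+, where 118 reads remained in 4OHT, against 5607 in EtOH. The fitted change was -3.54 (SE 0.42, lower in 2 of 2 genotypes, limma adjusted p = 0.00600), the 25th lowest among the 9595 genes.

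Oas2, another synthetase with repeated OAS units, had 24.4 RPKM in 4OHT, against 97.7 RPKM in EtOH, in Runx1 delta/delta. In Runx1 delta/+ it had 0.328 RPKM in 4OHT, which rested on 50 reads, against 14.4 RPKM in EtOH. Within each genotype the 4OHT library was lower, 4.00-fold in Runx1 delta/delta and 43.7-fold in Runx1 delta/+, but across genotypes the arms overlapped, since 4OHT in Runx1 delta/delta exceeded EtOH in Runx1 delta/+. The fitted change was -2.74 (SE 0.37, limma adjusted p = 0.00704).

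Oasl2, a relative with a ubiquitin-like tail that keeps synthetase activity in the mouse, had the highest EtOH mean of the family. It had 48.5 RPKM in 4OHT, against 204 RPKM in EtOH, in Runx1 delta/delta, and 4.05 RPKM in 4OHT, against 49.4 RPKM in EtOH, in Runx1 delta/+. The 4OHT value of Runx1 delta/delta lay just under the EtOH value of Runx1 delta/+, so the arms did not overlap. Oasl2 fell 4.20-fold in Runx1 delta/delta and 12.2-fold in Runx1 delta/+, with a fitted change of -2.68 (SE 0.30, limma adjusted p = 0.00562).

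Oas1a and Oas1g, the near copies that encode active small synthetases, both fell. Oas1a had 62.6 RPKM in 4OHT, against 134 RPKM in EtOH, in Runx1 delta/delta, and 7.62 RPKM in 4OHT, against 27.7 RPKM in EtOH, in Runx1 delta/+ (change -1.41, SE 0.19, limma adjusted p = 0.00746). Oas1g was lower throughout: 9.28 RPKM in 4OHT, against 28.7 RPKM in EtOH, in Runx1 delta/delta, and 0.446 RPKM (35 reads) in 4OHT, against 2.63 RPKM (177 reads) in EtOH, in Runx1 delta/+ (change -1.43, SE 0.15, limma adjusted p = 0.00477). For both genes each 4OHT library was below the EtOH library of its genotype, while 4OHT in Runx1 delta/delta was above EtOH in Runx1 delta/+. The RPKM fall was 2.14-fold in Runx1 delta/delta and 3.63-fold in Runx1 delta/+ for Oas1a, and 3.09-fold and 5.91-fold for Oas1g. With a pseudocount of 0.1 the changes were -1.47 for Oas1a and -1.97 for Oas1g.

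Oasl1 encodes a relative without synthetase activity that binds Irf7 mRNA and blocks its translation in mouse cells. It had 63.8 RPKM in 4OHT, against 128 RPKM in EtOH, in Runx1 delta/delta, and 23.0 RPKM in 4OHT, against 49.8 RPKM in EtOH, in Runx1 delta/+. Its fall was of nearly the same size in both genotypes, 2.01-fold and 2.17-fold, and smaller than those of Oas2, Oas3 and Oasl2 (change -1.04, SE 0.13, limma adjusted p = 0.00651).

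Oas1b and Oas1c were the least abundant in EtOH of Runx1 delta/delta. Oas1b, the flavivirus resistance gene of wild mice, is truncated in C57BL/6 and is classed by RefSeq as a transcribed pseudogene. It had 3.53 RPKM in 4OHT, against 8.66 RPKM in EtOH, in Runx1 delta/delta, and 2.46 RPKM in 4OHT, against 8.17 RPKM in EtOH, in Runx1 delta/+, with no overlap of the arms (change -1.25, SE 0.16, limma adjusted p = 0.00668). Oas1c, another OAS1 paralog, had 5.92 RPKM in 4OHT, against 8.83 RPKM in EtOH, in Runx1 delta/delta, and 2.82 RPKM in 4OHT, against 4.26 RPKM in EtOH, in Runx1 delta/+. It did not pass (change -0.48, SE 0.15, limma adjusted p = 0.0553), and passed with median-ratio scaling (change -0.65, limma adjusted p = 0.0339), under which the median of all genes was -0.02.

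Of the 8 members, 3 had both 4OHT libraries below both EtOH libraries (Oas1b, Oas3 and Oasl2), against 16.9% of the genes tested. The calls rest on comparing libraries within a genotype: without the genotype term (no replicate block) 0 of the 8 passed in limma and 2 had an unadjusted p under 0.05, with adjusted p from 0.0616 to 0.562. With 1 library left out and no genotype term, 3 passed without 4OHT replicate 1 (Oas2, Oas3 and Oasl2) and 0 without any of the other 3 libraries. Without 4OHT replicate 2 the changes of Oas2, Oas3 and Oasl2 were -0.62, -1.80 and -1.04. With the genotype term, 1 residual degree of freedom was left for each gene, and the p-values rest on a spread pooled over genes.

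**Figure D2:**
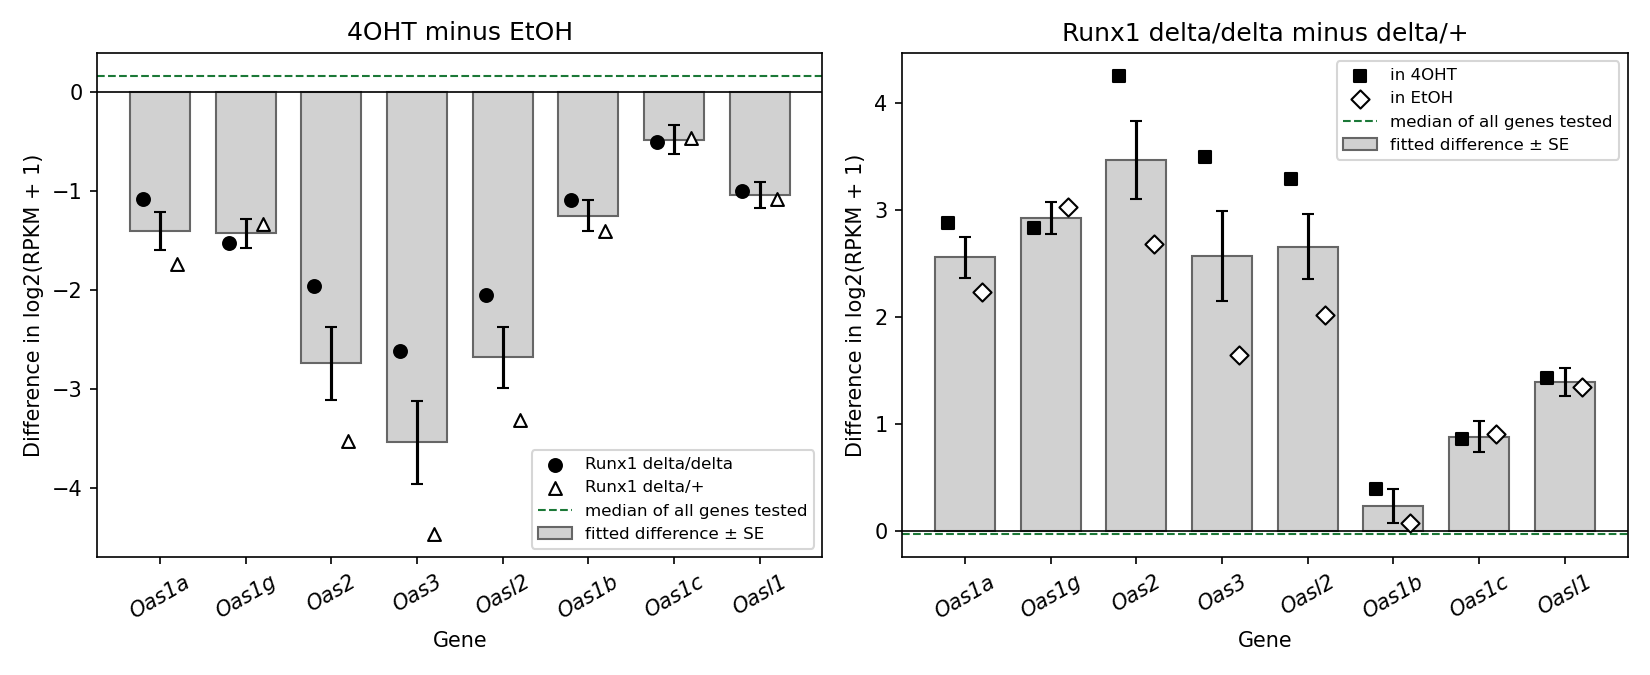
Differences in log2(RPKM + 1) for each OAS gene, 4OHT minus EtOH on the left and Runx1 delta/delta minus Runx1 delta/+ on the right. Bars are the fitted difference with its SE, points the difference within 1 genotype or 1 treatment, and the dashed line the median of all genes tested (0.16 on the left, -0.03 on the right). All points lie below 0 on the left and above 0 on the right, with Oas1b nearest to 0 on the right.

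The RPKM fold between EtOH and 4OHT was larger in Runx1 delta/+ than in Runx1 delta/delta for all 8 members; this held for 40.0% of the 2567 genes that were lower in both genotypes. The gap was wide for Oas2, Oas3 and Oasl2 and narrow for Oas1c (1.51-fold in Runx1 delta/+ and 1.49-fold in Runx1 delta/delta) and Oasl1. On the log2(RPKM + 1) scale, which shrinks changes of low values, 6 of the 8 had the larger difference in Runx1 delta/+, and Oas1g and Oas1c did not. The members' median within Runx1 delta/delta was -1.31 and within Runx1 delta/+ -1.57. Whether the response differed between the genotypes could not be tested, since that term uses up the last residual degree of freedom.

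The authors also set the single 4OHT library of each genotype against its EtOH library by Kal's Z-test. The authors' deposited table had 5 of the 8 members lower at an FDR under 0.05 in Runx1 delta/delta, against 1.26% of all rows. In Runx1 delta/+ 3 were, by the authors' deposited table, against 0.964% of all rows. These shares are over all 23240 rows, of which 17213 had any value above 0, and not over the 9595 genes tested in limma. Rows without reads cannot be called, so the shares are lower than they would be among expressed genes. The authors' deposited table gave Oas3 as 6.03-fold lower in Runx1 delta/delta (FDR p = 3.52e-13) and 53.7-fold lower in Runx1 delta/+ (FDR p = 2.81e-06). By its header this is a fold of proportions, and so not the same measure as the plain RPKM folds given above. Oas1a, at an FDR p of 0.0542 in Runx1 delta/+ in the authors' deposited table, fell just outside.

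The comparison of Runx1 delta/delta with Runx1 delta/+ asks how OAS levels differ with the second Runx1 allele. All 8 members were higher in Runx1 delta/delta in both treatments, against 33.9% of genes tested. In the same limma fit, 7 of the 8 were higher and 0 lower at an adjusted p under 0.05, against 4.68% of genes tested that were higher and 6.91% that were lower (11.6% in either direction). The members' median difference was 2.56, and that of all genes tested -0.03. Each genotype is represented by 2 libraries of what may be 1 leukaemia, so a difference between genotypes and one between mice cannot be told apart.

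Oas2 differed most. Runx1 delta/delta exceeded Runx1 delta/+ 74.3-fold in 4OHT (24.4 against 0.328 RPKM) and 6.80-fold in EtOH (97.7 against 14.4 RPKM). The fitted difference was 3.47 (SE 0.37, limma adjusted p = 0.0162), the second highest of all 9595 genes, and that of Oas1g was the third highest. Oas1g was 20.8-fold higher in Runx1 delta/delta in 4OHT and 10.9-fold higher in EtOH (difference 2.93, SE 0.15, limma adjusted p = 0.00828). Its near copy Oas1a was 8.21-fold higher in 4OHT and 4.84-fold higher in EtOH (difference 2.56, SE 0.19, limma adjusted p = 0.0126).

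Oasl2 and Oas3 had fitted differences of 2.66 (SE 0.30, limma adjusted p = 0.0176) and 2.57 (SE 0.42, limma adjusted p = 0.0302). For Oas3 the genotypes differed 27.5-fold in 4OHT and 3.18-fold in EtOH. Without 4OHT replicate 2, and with no treatment term, the fitted differences were 0.33 for Oas3, 0.998 for Oasl2 and 1.70 for Oas2. Oasl1 was 2.77-fold higher in Runx1 delta/delta in 4OHT and 2.58-fold higher in EtOH (difference 1.39, SE 0.13, limma adjusted p = 0.0126), and Oas1c 2.10-fold and 2.07-fold higher (difference 0.88, SE 0.15, limma adjusted p = 0.0305). Oas1b was the exception in the family, at 1.43-fold in 4OHT and 1.06-fold in EtOH (difference 0.23, SE 0.16, limma adjusted p = 0.360).

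Both Runx1 delta/delta libraries were above both Runx1 delta/+ libraries for 5 members (Oas1a, Oas1c, Oas1g, Oas2 and Oasl1), against 17.0% of genes tested. These same 5 had one order of levels, from high to low EtOH in Runx1 delta/delta, 4OHT in Runx1 delta/delta, EtOH in Runx1 delta/+ and 4OHT in Runx1 delta/+. This order was found in 5.28% of genes tested. All 8 members were highest in EtOH of Runx1 delta/delta and lowest in 4OHT of Runx1 delta/+. Given that, the order follows from the separation of the genotypes and is not a further result. In Oas1b, Oas3 and Oasl2 the middle pair stood the other way round, and for Oasl2 these values, 48.5 and 49.4 RPKM, were nearly equal. All genotype calls were lost without the treatment term (0 of 8 in limma, 3 with an unadjusted p under 0.05, adjusted p from 0.528 to 0.967) and with no filter on low values (0 of 8, 7 with an unadjusted p under 0.05, adjusted p from 0.0585 to 0.0955 for the 7 members), and likewise when any 1 of the 4 libraries was left out. Markers of myeloid cells that the sort removes were higher in Runx1 delta/delta too. Of the 7 in the table, Ly6c2, S100a8 and S100a9 were tested and all 3 were higher. The summed level of the 7 was 52.0 (4OHT) and 44.8 (EtOH) RPKM in Runx1 delta/delta, against 18.6 (4OHT) and 17.4 (EtOH) RPKM in Runx1 delta/+, and Itgam, the gene of CD11b, stayed at or below 0.358 RPKM. Of the red cell markers 4 were higher and 1 lower in Runx1 delta/delta. The part of these markers in the OAS difference was not tested.

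**Figure D3:**
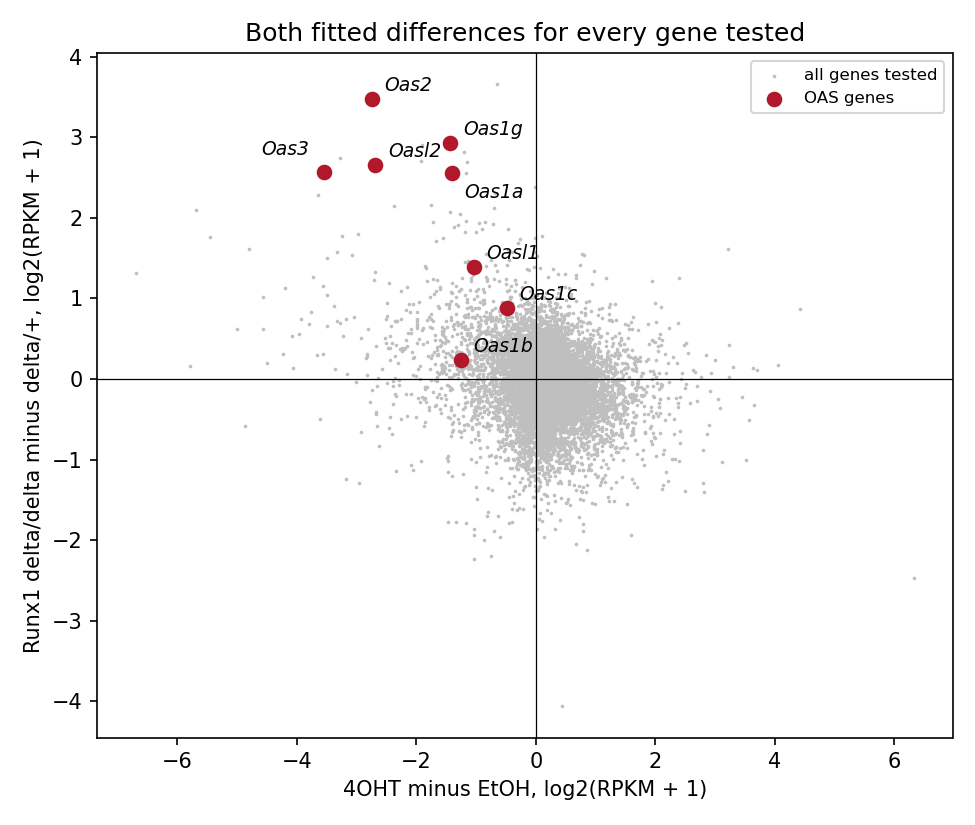
Each point is 1 of 9595 genes, with the fitted difference of 4OHT minus EtOH on the horizontal axis and of Runx1 delta/delta minus Runx1 delta/+ on the vertical axis, both in log2(RPKM + 1). The 8 OAS genes (red) all lie at the upper left, from Oas1b at 0.23 to Oas2 at 3.47 on the vertical axis.

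The summed level of the 8 members was 235 RPKM in 4OHT, against 722 RPKM in EtOH, in Runx1 delta/delta, and 41.4 RPKM in 4OHT, against 192 RPKM in EtOH, in Runx1 delta/+. Its make-up also differed. Oasl1, a relative without synthetase activity, made up 55.6% of the sum in 4OHT of Runx1 delta/+, against 26.0% in EtOH of the same genotype, and 27.1% in 4OHT of Runx1 delta/delta, against 17.8% in EtOH. Oas3 held a smaller share in 4OHT than in EtOH of either genotype: 1.53% in 4OHT of Runx1 delta/+, against 18.4% in EtOH, and 7.42% in 4OHT of Runx1 delta/delta, against 15.5% in EtOH. Oasl2 was the most abundant member in EtOH of Runx1 delta/delta and Oasl1 in the other 3 libraries. These shares are single values per library with no replicate.

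**Figure D4:**
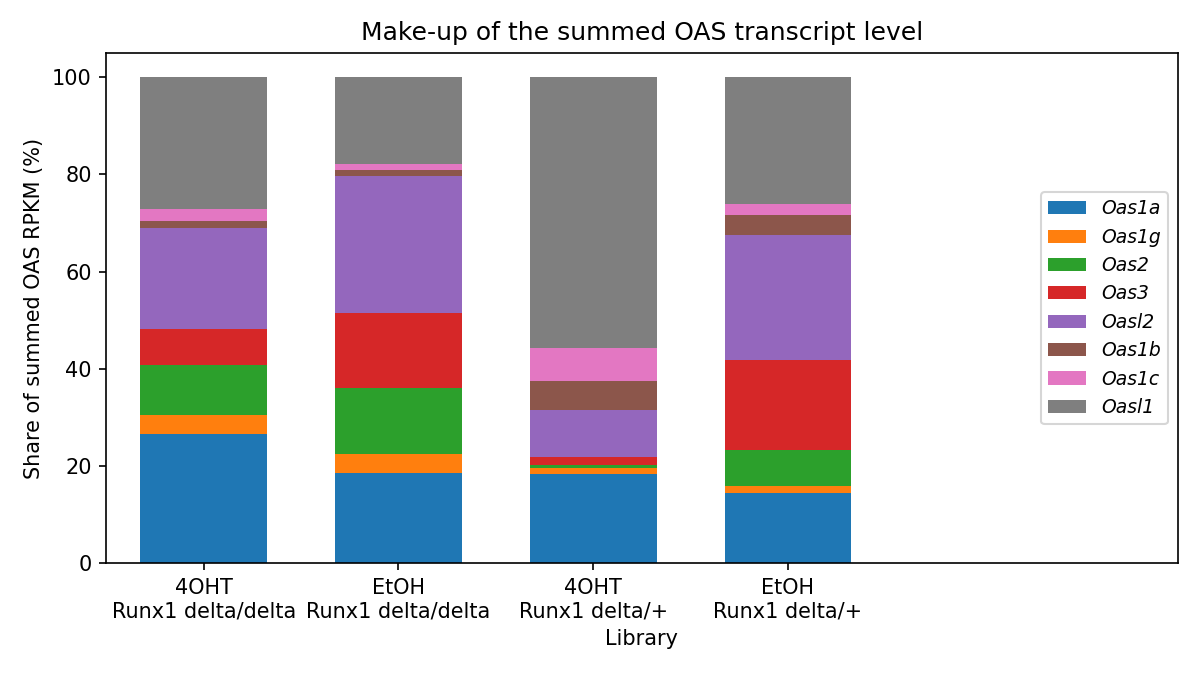
Share (%) of the summed OAS RPKM held by each gene, 1 stacked bar per library. Oasl1 (grey, top) takes 55.6% in 4OHT of Runx1 delta/+ and between 17.8% and 27.1% in the other 3 libraries.

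The remaining OAS1 paralogs were near silent. Oas1d, Oas1e, Oas1f and Oas1h ranged from 0 to 0.0674 RPKM over the 4 libraries, and none was tested. Oas1f and Oas1h lie between Oas1b and Oas1g in the cluster, and their promoter stretches are the ones printed without capitals. The windows of Oasl1 and Oasl2 had no ISRE core match either, and no window of Oas1d or Oas1e was searched. Either Oasl1 or Oasl2 was the most abundant member in each library. Oas1a, whose window held ISRE core matches, was above Oasl2 in both 4OHT libraries and below it in both EtOH libraries. A part of the ISRE core in these levels was not tested. Reads of Oas1d, Oas1e, Oas1f and Oas1h were too few for a fold.

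Other genes tied to 2-5A are given by their own values. Abce1, a ribosome recycling factor, had 51.4 RPKM in 4OHT, against 48.7 RPKM in EtOH, in Runx1 delta/delta, and 94.9 RPKM in 4OHT, against 75.4 RPKM in EtOH, in Runx1 delta/+. Abce1 was lower in Runx1 delta/delta (difference -0.75, limma adjusted p = 0.0356) and had no call for 4OHT (limma adjusted p = 0.309). Pde12, a phosphodiesterase that degrades 2-5A, lay between 10.9 and 15.5 RPKM with no call in either comparison. Akap7, which has a product with the same enzyme activity in the mouse, was at or below 1.09 RPKM and was not tested. The change of Pde12 with 4OHT was 0.38 (limma unadjusted p = 0.0375, limma adjusted p = 0.0883). Of the 9595 genes tested, 4387 had a limma unadjusted p under 0.05, and the median change of all was 0.16.

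Sensors of double-stranded RNA and other nucleic acids, which act beside the OAS enzymes, gave 5 falls and 0 rises with 4OHT among 8 tested, at a median change of -0.78, and 5 higher and 0 lower in Runx1 delta/delta. Of all genes tested 10.2% fell and 22.2% rose with 4OHT, and 4.68% were higher and 6.91% lower in Runx1 delta/delta. Those that fell were Eif2ak2 (PKR, the kinase that blocks translation on binding double-stranded RNA), Ddx58 (RIG-I), Ifih1 (MDA5), Dhx58 (LGP2) and Zbp1. Zbp1, a sensor of nucleic acids in the Z form, had 9.49 RPKM in 4OHT, against 17.9 RPKM in EtOH, in Runx1 delta/delta, and 0.317 RPKM in 4OHT, against 2.61 RPKM in EtOH, in Runx1 delta/+ (genotype difference 2.69, limma adjusted p = 0.0126). Eif2ak2 fell with 4OHT (change -0.88, limma adjusted p = 0.0103) without a genotype call (difference 0.18, limma adjusted p = 0.396), and Zc3hav1, the antiviral protein ZAP, had the reverse, no call for 4OHT and a difference of 0.93 between genotypes (limma adjusted p = 0.0290).

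Of 10 genes of type I interferon signalling, 6 fell and 1 rose with 4OHT, at a median change of -0.71, and 2 were higher in Runx1 delta/delta. The shares over all genes tested were 10.2%, 22.2% and 4.68%. The receptor genes Ifnar1 and Ifnar2 fell by 0.49 and 0.93 and did not differ detectably between genotypes (differences -0.09 and 0.11, limma adjusted p = 0.684 and 0.622). Of the factors that act at the ISRE, Stat2 fell by 1.11 (limma adjusted p = 0.00936) without a genotype call (limma adjusted p = 0.264), and Irf9 passed in neither comparison. Of 19 interferon-stimulated effectors tested, 12 fell and 0 rose with 4OHT, at a median change of -1.17, and 15 were higher and 0 lower in Runx1 delta/delta, at a median difference of 1.77. Over all genes tested, 10.2% fell with 4OHT and 4.68% were higher in Runx1 delta/delta.

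The 6 genes outside the family whose pattern lay nearest to that of the OAS genes were Gm12250, Isg15, Tinagl1, Irf7, Ube2l6 and Xaf1. Nearness is the Euclidean distance, over the 4 libraries, from the median OAS profile of centred log2(RPKM + 1) values. It ran from 0.217 for Gm12250 to 0.689 for Xaf1, against a median of 3.14 for all other genes, and from 0.633 (Oas1a) to 2.12 (Oas1b) for the members themselves. Gm12250 had 7.44 RPKM in 4OHT, against 23.0 RPKM in EtOH, in Runx1 delta/delta, and 0.601 RPKM in 4OHT, against 5.32 RPKM in EtOH, in Runx1 delta/+. With 4 libraries this is a description.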

How the data were processed

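RNA was sequenced in 4 mouse libraries. Per the labels' protocols, RNA came from sorted cells and libraries were made with a TruSeq or a NEBNext kit. The sources used here do not assign the kits to libraries and do not name the aligner, the annotation, the counting rule or the use of strand. The submitters' processing notes name mouse build mm 9. Per the file headers, the authors deposited RPKM for each library, and a signed fold (a score, negative where lower in 4OHT), the p-value of Kal's Z-test, raw and FDR-corrected, for 1 library against 1 library.

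Library totals were recovered from the RPKM steps: relative totals from the commonest ratio between low values, the absolute total from the value shared by 140 of 576 genes with a single annotated transcript. All 8 members then gave whole reads in all 4 libraries (tolerance 0.02 reads), at the fitting gene length nearest to an annotated transcript. Reads are not known to be independent molecules. Promoters (RefSeq, GRCm38.p6) and transcripts (GENCODE vM21) were matched by symbol and are of another build than the files; no coordinates were carried over.

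Log2(RPKM + 1) values of genes averaging 1 RPKM or more were fitted in limma 3.58.1 (R 4.3.3) with treatment and genotype as terms, a trended prior and two-sided tests. Genotype equals the replicate number; libraries sharing a number deviated together from their treatment means (correlation across genes 0.664). Nothing says that libraries are separate cultures of separate mice, so a p-value here reflects only how these 4 samples scatter. For each gene that scatter is the gap between its 4OHT difference in Runx1 delta/delta and that in Runx1 delta/+. It is pooled over genes, is not a spread between replicates, and may be technical. The fit was tested on simulated data with independent errors and the same treatment effect in both genotypes. These libraries need not meet either condition, so that test does not show how far their p-values hold. Alternatives were a pseudocount of 0.1, no filter, median-ratio scaling, fits with 1 term, and each library left out. The members and gene lists were chosen with earlier results of these data known. Named genes were all members, list genes with a call or a role with 2-5A, and the 6 nearest patterns; markers are named where they check the labels. Mb21d1 and the marker Ly6g were not matched in the table by symbol. Some genes of the lists are not reported here.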

Additional observations from a re-analysis of the deposited data

How the results depend on the processing

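With 4OHT, 7 of the 8 OAS genes passed under a pseudocount of 0.1 and with no filter, and 8 with median-ratio scaling, all lower. Across the table, 3113 genes passed (2130 higher, 983 lower), 2546 with median-ratio scaling (1221 higher, 1325 lower). In limma with no replicate block, that is, with genotype dropped, 233 genes and 0 OAS genes passed, 2 of the OAS genes at an unadjusted p under 0.05. Leaving out 1 library leaves no residual degree of freedom with that term, so it was dropped there too: 3 to 245 genes and 0 to 3 OAS genes passed (Oas2, Oas3 and Oasl2 without 4OHT replicate 1; 0 without each of the others, with 1 to 6 at an unadjusted p under 0.05). In such fits a treatment difference holds part of the genotype difference. The change of Oas1a ran from -2.85 to 0.031 (without 4OHT replicate 2) and that of Oas1g from -2.94 to 0.085 (without EtOH replicate 1). From the fit without 4OHT replicate 1 to that without 4OHT replicate 2, the change ran from -4.87 to -0.62 for Oas2, from -5.29 to -1.80 for Oas3, from -4.33 to -1.04 for Oasl2 and from -1.76 to -0.32 for Oasl1.

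Between genotypes, 1112 genes and 7 OAS genes passed, 965 and 7 with a pseudocount of 0.1, and 845 and 7 with median-ratio scaling. With no filter 0 genes and 0 OAS genes passed in limma (3906 and 7 at an unadjusted p under 0.05), and without the treatment term 0 and 0 (880 and 3). With 1 library left out and no treatment term, 0 genes and 0 OAS genes passed in limma in each case (169 to 627 genes and 1 to 6 OAS genes at an unadjusted p under 0.05), and Oas1b ran from -0.47 to 0.93, with -0.47 without 4OHT replicate 2 and -0.31 without EtOH replicate 1. From the fit without 4OHT replicate 2 to that without EtOH replicate 2, the difference ran from 1.70 to 5.24 for Oas2, from 0.33 to 4.81 for Oas3, from 0.998 to 4.32 for Oasl2, from 0.85 to 1.93 for Oasl1 and from 1.69 to 3.43 for Oas1a. From the fit without EtOH replicate 1 to that without 4OHT replicate 1 it ran from 2.16 to 3.69 for Oas1g and from 0.63 to 1.13 for Oas1c. The cause of these changes was not tested beyond the fewer samples and terms. Depth limits the values of Oas1g and Oas2 in 4OHT of Runx1 delta/+, which rest on 35 and 50 reads.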
